A study of Mus musculus with 16 samples.

Results

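The genes described here are the 7 sirtuins (Sirt1 to Sirt7), the NAD+-forming enzyme gene Nampt and the PGC-1 coactivator genes Ppargc1a and Ppargc1b. They were chosen by gene name as the pathway through which resveratrol has been proposed to act, and all 10 were found among the 23235 gene names of the mRNA table. All 10 passed the filter on low counts that left 15364 genes for testing. RNA came from skeletal muscle of 16 male C57BL/6J mice, 4 in each of 4 groups, that were 6 weeks old at the start. The control group ate a normal diet. The HFD group ate a high-fat diet (D12492J, 60% fat) for 8 weeks. The HFD + RSV group and the HFD + metformin group ate that diet as well and were then treated with resveratrol or metformin for 6 weeks. Each mouse gave 1 library. The study's methods describe 3 of these groups, not the HFD + metformin group, whose dose is not given in the sources used here. In those methods some mice of each group received insulin shortly before the tissue was taken, and neither the sequenced mice among them nor the muscle taken are named. RNA was made from whole muscle tissue, so fewer cells of a type and less RNA per cell cannot be told apart in any difference between groups.

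Sirtuins are enzymes that use NAD+ to remove acetyl and other acyl groups from proteins, and each molecule of NAD+ they consume releases nicotinamide. Nampt catalyses the rate-limiting step that turns nicotinamide back into NAD+, so the pair of activities forms a cycle. PGC-1α, the product of Ppargc1a, is a transcriptional coactivator of mitochondrial and fatty acid oxidation genes in muscle. It is a substrate of SIRT1 and is induced by exercise, fasting and cold. PGC-1β, the product of Ppargc1b, coactivates an overlapping set of mitochondrial genes. Sirt1, Sirt6 and Sirt7 encode mainly nuclear enzymes, Sirt2 a mainly cytosolic one, and Sirt3, Sirt4 and Sirt5 mitochondrial ones. What is measured here is the mRNA, whereas much of the regulation of sirtuins is through NAD+ and through the enzyme itself.

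In the GENCODE M21 annotation of GRCm38, the nuclear Sirt1, Sirt6 and Sirt7 lie on the minus strand at chr10:63319005-63381704, chr10:81621785-81627797 and chr11:120618372-120625240. Sirt2 lies on the plus strand at chr7:28766735-28788661. Of the mitochondrial sirtuins, Sirt3 (chr7:140863666-140882309) and Sirt4 (chr5:115478010-115484725) lie on the minus strand and Sirt5 (chr13:43365496-43395203) on the plus strand. Nampt lies on the plus strand at chr12:32819545-32853349, Ppargc1a on the minus strand at chr5:51454250-51567726 and Ppargc1b on the minus strand of chromosome 18.

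The libraries held 20281801 to 34021101 counts over both deposited tables, and the 10 genes were represented by 68 counts (Sirt6 in a control mouse) to 5723 counts (Nampt in a control mouse). Rank correlations of the libraries were 0.960 to 0.977 within groups and 0.957 to 0.978 between groups. The 6 markers of skeletal muscle fibres (Acta1, Ckm and others) summed to 54315 to 105495 CPM (counts scaled to a common library size), high in every mouse, although the extraction text of the labels speaks of another tissue (retina). Some libraries stood apart in markers of other cells. The 4 brown adipocyte markers (Ucp1, Cidea, Elovl3, Dio2) summed to 56.7, 120.1, 753 and 31.4 CPM in the control mice, against 3.89 to 5.11 CPM in the HFD mice, with control mouse 3 and metformin mouse 3 (177.3 CPM) the highest. The 6 fast fibre markers (Myh4, Tnni2 and others) summed to 53365 to 96291 CPM in control and 95124.8 to 103319 CPM in HFD. The 6 white adipocyte markers ranged from 27.5 to 2497 CPM over the 16 mice, and the 7 slow fibre markers from 93.6 to 2313 CPM within the control group alone. The labels of the 4 HFD mice share a leading number that no mouse of another group carries, so a cage or batch that this number may stand for cannot be told apart from the diet. Some leading numbers recur between the other groups (control with HFD + RSV, and HFD + metformin with HFD + RSV), and the labels do not say what they mean. The labels do not say whether the 4 mice of a group were housed or processed apart, so p-values measure the spread between these samples.

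On the length-scaled scale (FPKM, summed over the transcripts of a gene), Nampt was the most abundant of the genes, at a mean of 36.6 FPKM over the 16 mice, followed by Sirt2 at 22.9 FPKM. Their ranges over mice overlapped neither each other nor the next gene, and Nampt lay above Sirt2 in 16 of 16 mice. The other 8 genes lay lower, with Ppargc1a at 8.42, Sirt3 at 7.14, Ppargc1b at 6.18, Sirt4 at 5.38, Sirt5 at 5.01, Sirt1 at 4.32, Sirt7 at 3.20 and Sirt6 at 2.25 mean FPKM. From Ppargc1a down, each gene's range overlapped that of the next one. Neighbours kept this order in 9 of 16 mice for Ppargc1b over Sirt4 and in 15 of 16 for Sirt1 over Sirt7 and for Sirt7 over Sirt6. On this scale the most abundant sirtuin mRNA was the cytosolic Sirt2, above the mitochondrial Sirt3, and Sirt1 came after Sirt2, Sirt3, Sirt4 and Sirt5. The sums include transcripts annotated as retained introns or noncoding. In CPM, which is not divided by transcript length, Sirt1 had a mean of 11.04 over the 16 mice and Sirt3 of 10.91. The order below Sirt2 thus depends on the scale.

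**Figure D1:**
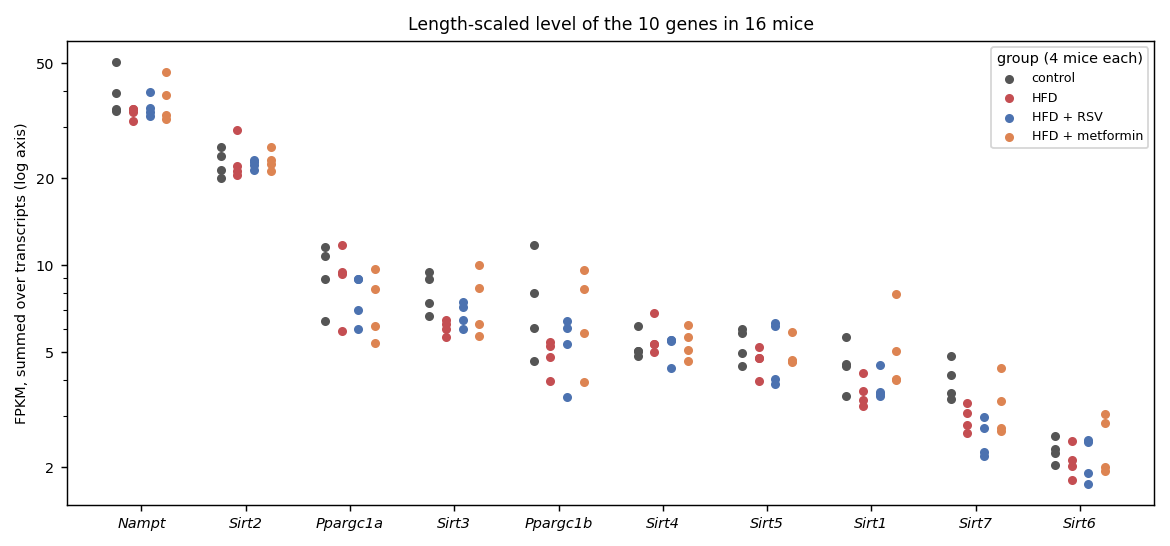
FPKM of the 10 genes (log axis) in each of the 16 mice, coloured by group, with genes ordered by their mean over all mice. Nampt and Sirt2 stand clear of the rest, whose ranges overlap from Ppargc1a to Sirt6, and the 4 groups lie on top of each other for most genes.

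None of the 10 mRNAs passed the test in any comparison. With edgeR's quasi-likelihood test and Benjamini-Hochberg adjustment over all genes tested, 0 of 10 were called at an adjusted p under 0.05 on the diet alone (HFD against control), where 2.43% of all genes were called. With resveratrol on the diet (HFD + RSV against HFD) 0 of 10 were called, as were 0% of all genes (725 genes had an unadjusted p under 0.05). With metformin on the diet (HFD + metformin against HFD) 0 of 10 were called, with 0.013% of all genes. Against the control group, 0 of 10 were called in the HFD + RSV group (0.00651% of all genes) and in the HFD + metformin group (0% of all genes). Between HFD + RSV and HFD + metformin 0 of 10 were called (0% of all genes). A test for any difference among the 4 groups called 0 of 10, with 0.117% of all genes, and 2 of 10 (Sirt1 and Sirt7) had an unadjusted p under 0.05, with 15.4% of all genes.

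At an unadjusted p under 0.05, 5 of the 60 tests passed, 3 of them for Sirt7 and 2 for Sirt1. By comparison the members that passed numbered 1 of 10 in HFD against control (24.2% of all genes), 0 of 10 in HFD + RSV against HFD (4.72%), 1 of 10 in HFD + metformin against HFD (8.02%), 1 of 10 in HFD + RSV against control (15.8%), 1 of 10 in HFD + metformin against control (9.5%) and 1 of 10 between the treated groups (4.68%). DESeq2 also called 0 of the 60 tests, with 4 at an unadjusted p under 0.05, and limma on log2(FPKM + 0.1) called 0, with 4. The median log2 fold change (log2FC) of the 10 genes was -0.021 in HFD against control, where that of all genes was -0.018. It was 0.0045 in HFD + RSV against HFD, beside 0.0049 for all genes, and 0.031 in HFD + metformin against HFD, beside 0.017.

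The precision of the comparisons bounds what could have been missed. Of the 60 intervals at the 95% level, 56 lay within a 2-fold change in both directions. The other 4 were those of Ppargc1b in HFD against control, of Sirt1 and Ppargc1a in HFD + metformin against HFD and of Sirt1 between the treated groups. For resveratrol on the diet, 10 of 10 intervals lay within 2-fold, so a doubling or halving of the group means lay outside them, whereas smaller differences could have been missed with 4 mice a group.

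**Figure D2:**
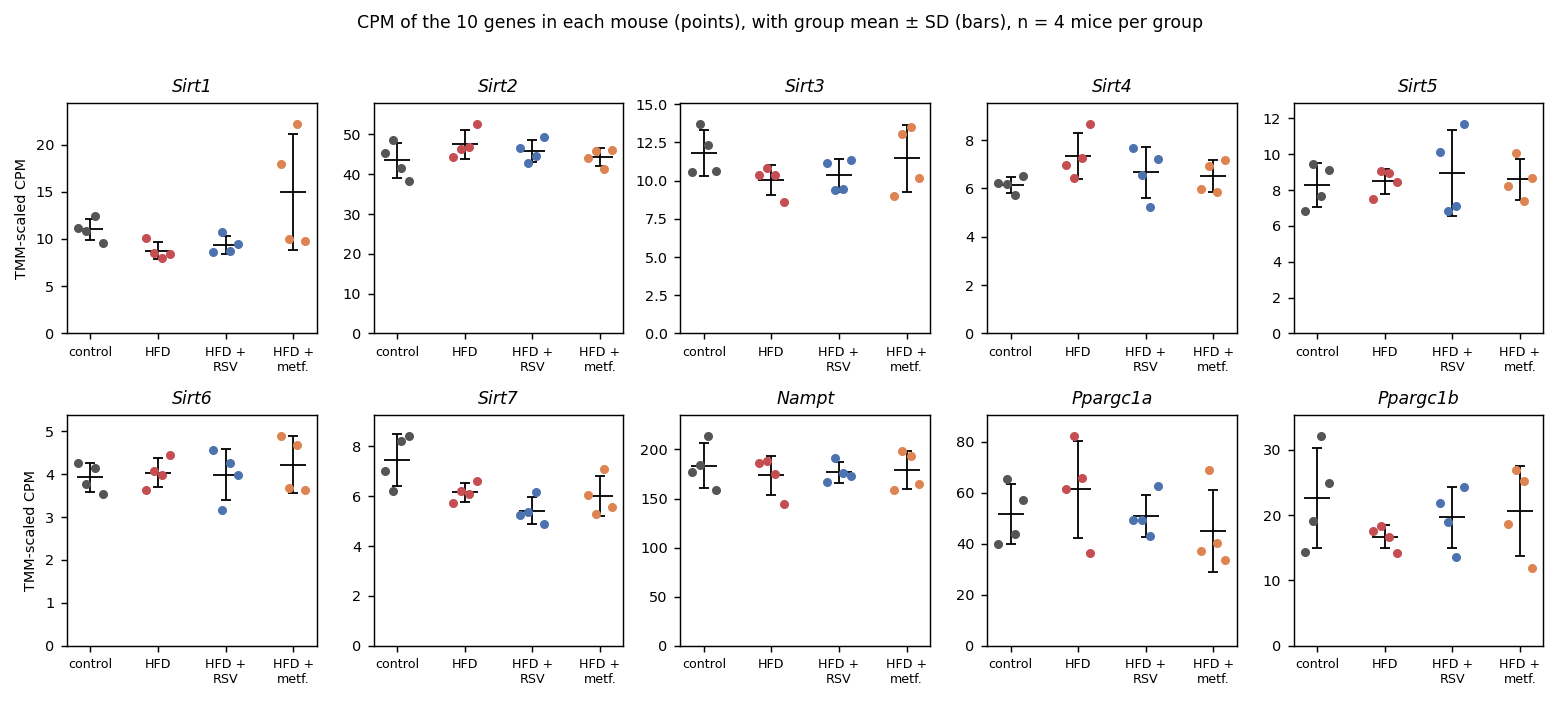
CPM after TMM scaling (vertical axes from 0) of each of the 10 genes in each mouse, by group, with bars at the mean ± SD of 4 mice. Sirt1 has its 2 highest values in metformin mice, the control mice hold the 2 highest values of Sirt7, and Ppargc1a and Ppargc1b spread widely within groups.

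**Figure D3:**
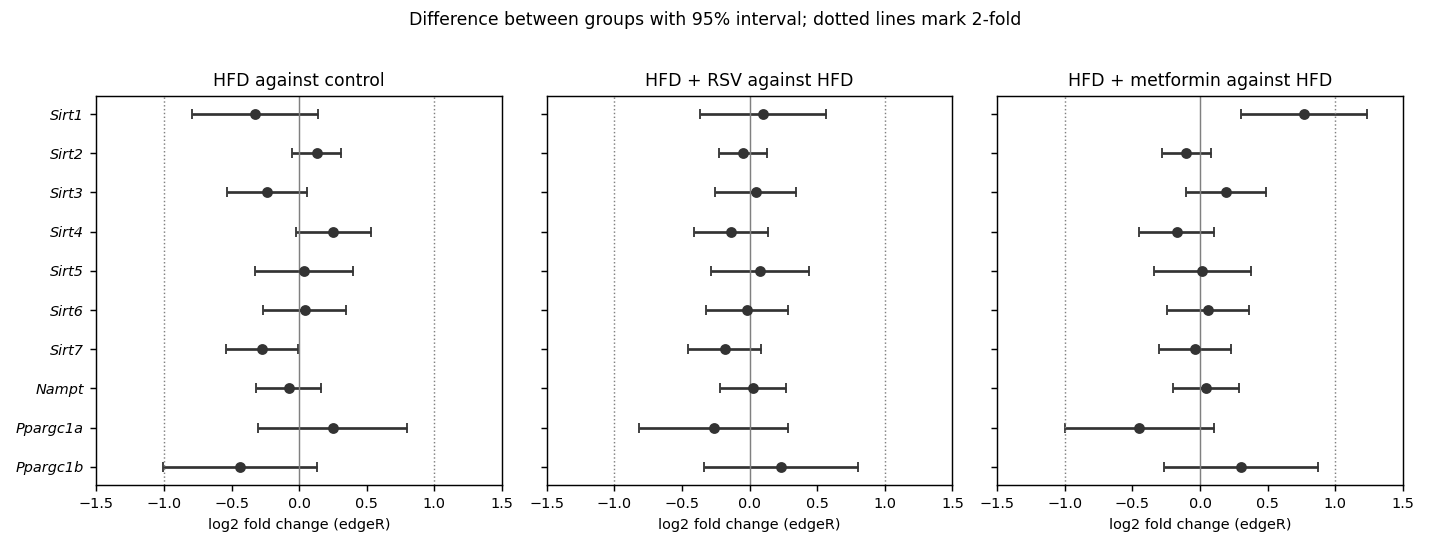
Log2FC of the 10 genes from edgeR (horizontal axes) with 95% intervals in 3 comparisons, each of 4 mice against 4. Most intervals include 0 and lie inside the dotted 2-fold lines; those of Sirt1 with metformin and of Sirt7 on the diet exclude 0 before adjustment.

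Sirt1 encodes the nuclear deacetylase usually named as the target of resveratrol. In CPM it was 11.1, 10.9, 12.4 and 9.62 in the control mice, 10.1, 8.57, 7.96 and 8.45 in the HFD mice, 8.67, 10.8, 8.74 and 9.43 in the HFD + RSV mice and 17.9, 10.04, 22.2 and 9.74 in the HFD + metformin mice. The HFD and HFD + RSV values lay in the same range, and metformin mice 1 and 3 lay above all the other mice. The group means were 11.01 ± 1.15, 8.77 ± 0.939, 9.40 ± 0.965 and 14.98 ± 6.14 CPM (SD, n = 4 each). For resveratrol the log2FC was 0.10 (SE 0.22, 95% interval -0.37 to 0.57) against HFD, with an adjusted p of 0.999 by edgeR. For the diet it was -0.33 (SE 0.22, 95% interval -0.79 to 0.14), with an unadjusted p of 0.154 and an adjusted p of 0.371 by edgeR. Of the 4 HFD mice 3 lay below all control mice, and the exact permutation test gave p = 0.0571. The fit behind these SE values includes the HFD + metformin mice, whose SD was the largest. With only the HFD and control groups in the fit, the log2FC was -0.32 (unadjusted p = 0.0205, adjusted p = 0.112), which was not called either.

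For metformin against HFD the log2FC of Sirt1 was 0.77 (SE 0.22, 95% interval 0.30 to 1.23), with an unadjusted p of 0.00313 and an adjusted p of 0.580, and the exact two-sided permutation test of 4 mice against 4 gave p = 0.0857, where 0.0286 is the smallest it can give. Between HFD + RSV and HFD + metformin it was -0.67 (SE 0.22, 95% interval -1.13 to -0.20), with an unadjusted p of 0.00780 and an adjusted p of 0.962 by edgeR. Both differences rested on metformin mice 1 and 3. Without these mice, a choice made after seeing the values, the log2FC was 0.17 against HFD (unadjusted p = 0.209) and -0.072 between the treated groups (unadjusted p = 0.593). The same 2 mice had the highest white adipocyte marker sums of their group, at 1131, 27.5, 2497 and 123 CPM for mice 1 to 4. Control mice 1 to 4 had sums of 792, 506, 2494 and 1083 CPM. Their Sirt1 was 9.62 to 12.4 CPM, highest in control mouse 3. Whether the adipocyte RNA had a part in the Sirt1 values was not tested.

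The promoter of Sirt1 is shown because it is the one of the listed sirtuin promoters with an E-box, the element bound by clock and MYC-type factors. RefSeq promoters of build GRCm38.p6 were listed for 9 of the 10 genes, with 11 starts, and the 250 bases before each start were searched on both strands. CACGTG was found in the window of 1 of these 9 genes and in 6.02% of 32851 promoter windows of the table. The Sirt1 window lies at chr10:63339036-63339285 on the minus strand and is written 5′ to 3′ with the E-boxes in capitals. Their first bases lie 115 and 43 bases before the start.
Sirt1: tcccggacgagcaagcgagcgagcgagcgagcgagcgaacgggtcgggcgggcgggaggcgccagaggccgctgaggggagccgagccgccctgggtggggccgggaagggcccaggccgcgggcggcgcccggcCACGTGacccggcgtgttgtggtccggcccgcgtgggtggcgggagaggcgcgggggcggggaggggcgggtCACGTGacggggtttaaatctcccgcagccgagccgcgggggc

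Sirt6 and Sirt7, the other nuclear sirtuins, act on chromatin and on ribosomal DNA, respectively. Sirt6 was the least abundant gene and varied little, from 3.17 to 4.89 CPM over the 16 mice, and its largest absolute log2FC in the 6 comparisons was 0.10. Sirt7 was 7.02, 6.21, 8.21 and 8.42 CPM in the control mice, 5.71, 6.20, 6.10 and 6.61 in the HFD mice, 5.23, 5.38, 6.17 and 4.87 in the HFD + RSV mice and 6.05, 5.28, 7.10 and 5.57 in the HFD + metformin mice. Control mice 3 and 4 were the highest of all, control mouse 2 lay among the HFD mice, and the HFD + RSV mice all lay below the lowest control mouse. The means were 7.47 ± 1.04 in control, 6.16 ± 0.371 in HFD, 5.41 ± 0.546 in HFD + RSV and 6.00 ± 0.797 CPM in HFD + metformin.

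The log2FC of Sirt7 in the HFD group against control was -0.28 (SE 0.12, 95% interval -0.54 to -0.012), with an unadjusted p of 0.0419 and an adjusted p of 0.189. In the HFD + RSV group against control it was -0.46 (SE 0.12, 95% interval -0.73 to -0.20), with an unadjusted p of 0.00218, an adjusted p of 0.154 by edgeR and p = 0.0286 by the exact permutation test, the smallest it can give. It was the 1 of the 60 comparisons of a member in which the groups did not overlap, and groups did not overlap in 11.3% of all genes in HFD + RSV against control. In the other comparisons the groups overlapped for 10 of 10 members, while they did not overlap in 18.3% of all genes in HFD against control, 4.2% in HFD + RSV against HFD, 3.72% in HFD + metformin against HFD, 3.53% in HFD + metformin against control and 1.56% between the treated groups. In the HFD + metformin group against control it was -0.31 (SE 0.12, 95% interval -0.58 to -0.049), with an adjusted p of 0.438. These 3 comparisons share the 4 control mice. Against the HFD group the log2FC was -0.19 (SE 0.13, 95% interval -0.45 to 0.082) with resveratrol, for which the exact permutation p was 0.0857, and -0.038 (SE 0.12, 95% interval -0.30 to 0.23) with metformin. With DESeq2 the adjusted p in HFD + RSV against control was 0.0503. Sirt7 shares 124 exonic bases with Mafg on the same strand in the GENCODE M21 annotation, so part of its counts could come from that gene. Its coding transcripts, ENSMUST00000080202 and ENSMUST00000146809, held 5.96% and 7.47% of its counts. In HFD + RSV against control their log2FC values were -0.067 (SE 0.74) and -1.03 (SE 1.21). The leading retained introns ENSMUST00000130743, ENSMUST00000153018 and ENSMUST00000127882 had -1.04 (SE 0.35), -0.68 (SE 0.24) and -0.21 (SE 0.17). The Sirt7 sum is thus not a measure of coding mRNA alone.

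Sirt2 encodes the main cytosolic sirtuin, a tubulin deacetylase among other roles. It was the steadiest of the sirtuins, at 38.4 to 52.7 CPM over all mice, with 43.5 ± 4.43 CPM in control, 47.5 ± 3.63 in HFD, 45.9 ± 2.81 in HFD + RSV and 44.3 ± 2.23 in HFD + metformin. The log2FC was 0.13 (SE 0.084, 95% interval -0.050 to 0.31) in HFD against control and -0.050 (SE 0.083, 95% interval -0.23 to 0.13) in HFD + RSV against HFD. The group ranges overlapped in all 6 comparisons.

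Sirt3, the major deacetylase of the mitochondrial matrix, was 10.6, 13.7, 12.3 and 10.6 CPM in the control mice and 10.4, 10.8, 10.3 and 8.59 in the HFD mice. The treated mice spanned 9.41 to 11.4 CPM with resveratrol and 9.02 to 13.5 CPM with metformin, ranges that overlapped both other groups. The log2FC was -0.24 (SE 0.14, 95% interval -0.53 to 0.061) in HFD against control, 0.044 (SE 0.14, 95% interval -0.25 to 0.34) in HFD + RSV against HFD and 0.19 (SE 0.14, 95% interval -0.10 to 0.49) in HFD + metformin against HFD, with adjusted p values of 0.310, 0.999 and 0.709 by edgeR. Sirt3 overlaps exons of Psmd13 and Ric8a on the opposite strand by 342 and 418 bases. The library kit named in the labels does not mark strand, so reads of these stretches cannot be assigned to a gene by strand.

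Sirt4, which inhibits glutamate dehydrogenase and fatty acid oxidation, was 5.71 to 6.50 CPM in control, 6.45 to 8.68 in HFD, 5.23 to 7.69 in HFD + RSV and 5.87 to 7.19 in HFD + metformin. Of the 4 HFD mice 3 lay above all control mice, and the log2FC was 0.25 (SE 0.13, 95% interval -0.022 to 0.53), with an adjusted p of 0.242 by edgeR. Sirt5, which removes succinyl and malonyl groups from mitochondrial proteins, was 6.85 to 9.46, 7.53 to 9.06, 6.81 to 11.7 and 7.39 to 10.1 CPM in the same order. Its log2FC was 0.037 (SE 0.17, 95% interval -0.32 to 0.40) in HFD against control and 0.074 (SE 0.17, 95% interval -0.29 to 0.44) in HFD + RSV against HFD, and the HFD + RSV mice fell into a pair at 6.81 and 7.10 CPM and a pair at 10.1 and 11.7 CPM.

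Nampt had the smallest differences of the 10 genes, with a largest absolute log2FC of 0.079 over the 6 comparisons. It was 177, 184, 214 and 159 CPM in the control mice, 186, 189, 175 and 145 in the HFD mice, 167, 191, 176 and 173 in the HFD + RSV mice and 159, 198, 194 and 165 in the HFD + metformin mice. All groups overlapped, and the highest of the 16 values was 1.48 times the lowest. The log2FC was -0.079 (SE 0.11, 95% interval -0.32 to 0.16) in HFD against control, 0.025 (SE 0.11, 95% interval -0.22 to 0.27) in HFD + RSV against HFD and 0.044 (SE 0.11, 95% interval -0.20 to 0.29) in HFD + metformin against HFD.

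By the median over the 4 groups, the PGC-1 genes spread most between mice of one group. Their median coefficients of variation of CPM were 27.0% for Ppargc1a and 28.5% for Ppargc1b, against 6.88% for Sirt2. The largest in a single group was 41.0%, for Sirt1 in HFD + metformin. In CPM Ppargc1a was 40.05, 65.5, 43.8 and 57.2 in the control mice, 61.4, 82.3, 65.7 and 36.2 in the HFD mice, 49.2, 49.1, 43.2 and 62.7 in the HFD + RSV mice and 36.96, 68.96, 40.3 and 33.6 in the HFD + metformin mice. HFD mouse 2 was the highest and metformin mouse 4 the lowest of the 16, and no group was separate from another. The log2FC was 0.25 (SE 0.26, 95% interval -0.30 to 0.80) in HFD against control, -0.27 (SE 0.26, 95% interval -0.82 to 0.28) in HFD + RSV against HFD and -0.45 (SE 0.26, 95% interval -1.002 to 0.10) in HFD + metformin against HFD, with adjusted p values of 0.582, 0.999 and 0.651 by edgeR. In HFD + metformin against HFD 3 of the 4 metformin mice lay between 33.6 and 40.3 CPM, while metformin mouse 2 was at 69.0 CPM. Without that mouse the log2FC was -0.73 (unadjusted p = 0.00808, adjusted p = 0.371), and without HFD mouse 4 it was -0.64 (unadjusted p = 0.0191, adjusted p = 0.601).

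Ppargc1b was 14.4, 19.1, 32.2 and 25.01 CPM in the control mice, 17.6, 18.4, 16.7 and 14.2 in the HFD mice, 21.8, 18.99, 13.5 and 24.4 in the HFD + RSV mice and 18.6, 26.9, 25.3 and 11.9 in the HFD + metformin mice. The HFD mice lay close together near the lower end of the control range, and control mouse 3 was the highest of all. The log2FC was -0.44 (SE 0.27, 95% interval -1.01 to 0.13) in HFD against control, 0.23 (SE 0.27, 95% interval -0.34 to 0.80) in HFD + RSV against HFD and 0.30 (SE 0.27, 95% interval -0.27 to 0.88) in HFD + metformin against HFD, with adjusted p values of 0.325, 0.999 and 0.756 by edgeR. Control mouse 3 also had the highest brown adipocyte marker sum, and the part of brown adipocytes in its Ppargc1b value was not tested. Without control mouse 3 and metformin mouse 3, a choice made after seeing the data, the log2FC in HFD against control was -0.225 (unadjusted p = 0.412). The log2FC in HFD + RSV against control went from -0.21 to 0.018. Without control mouse 1, the lowest of its group, the difference in HFD against control was larger, at -0.60 (unadjusted p = 0.0385, adjusted p = 0.165). At the same time HFD mice had slow fibre marker sums of 97.9 to 270.2 CPM, against 93.6 to 2313 CPM in control, and the part of these cells in the difference was not tested.

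**Figure D4:**
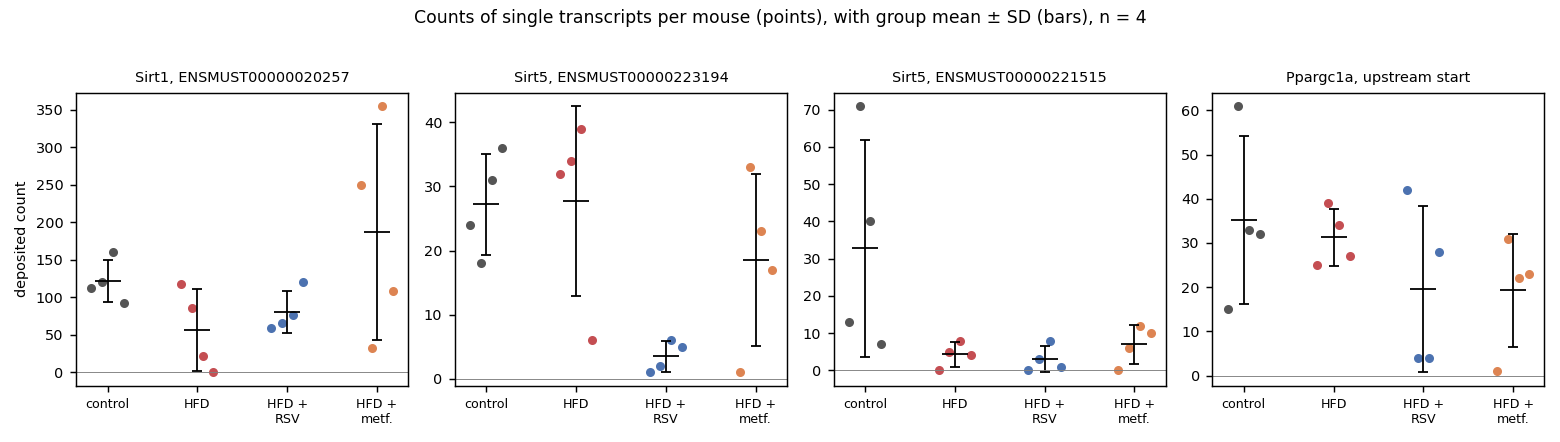
Deposited counts in each mouse of 3 transcripts and of the transcripts from the upstream start of Ppargc1a, by group, with bars at the mean ± SD of 4 mice. The HFD + RSV mice have 1 to 6 counts of Sirt5 ENSMUST00000223194, a level also seen in 1 HFD and 1 metformin mouse, and Sirt1 ENSMUST00000020257 is highest in metformin mice 1 and 3.

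The 10 genes were represented by 67 annotated transcripts, of which 54 passed the filter, and 0 of their 324 tests in the 6 comparisons passed an adjusted p under 0.05 by edgeR, with 26 at an unadjusted p under 0.05. In HFD against control 4 of 54 passed unadjusted (13.1% of all transcripts tested), in HFD + RSV against HFD 3 (5.02%) and in HFD + metformin against HFD 2 (6.07%). The adjusted rule called 0.0157%, 0% and 0.00449% of all transcripts in these comparisons. Against control 8 of 54 passed unadjusted with resveratrol (9.26%) and 5 with metformin (6.69%), and 4 did between the treated groups (4.79%), where the adjusted rule called 0.00449%, 0.00224% and 0.00673% of all transcripts. Counts of single transcripts are estimates, because fragments that fit several transcripts of a gene are divided among them, and 30 of the 67 transcripts held at least 10% of the FPKM of their gene in the mean over 16 mice.

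For Nampt 1 transcript, ENSMUST00000020886, held 92.6% of the FPKM. For Ppargc1a ENSMUST00000132734 held 73.8% and ENSMUST00000031059, annotated as subject to nonsense-mediated decay, 16.2%. For Ppargc1b ENSMUST00000075299 held 70.1% and ENSMUST00000142134, annotated as noncoding, 23.6% (3.17% of the counts). The FPKM of Sirt6 came mainly from ENSMUST00000042923 (59.1%), with ENSMUST00000143424 at 17.7% and ENSMUST00000119324 at 14.5%. Sirt2 was shared by ENSMUST00000122915 (37.8%), ENSMUST00000072965 (33.5%) and ENSMUST00000155327 (11.7%), and Sirt3 by ENSMUST00000106048 (42.9%), ENSMUST00000026559 (14.9%) and ENSMUST00000137024 (12.3%). In each of these genes a coding transcript led.

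The remaining genes were more divided. By FPKM Sirt1 was split over ENSMUST00000131371 (28.7%) and ENSMUST00000148516 (22.1%), both annotated as retained introns, and the coding ENSMUST00000020257 (24.4%) and ENSMUST00000177694 (16.8%). By FPKM Sirt4 was led by the retained-intron ENSMUST00000154729 (33.5%), before the coding ENSMUST00000112067 (24.8%), the retained-intron ENSMUST00000131121 (13.4%) and the coding ENSMUST00000112066 (11.9%). For Sirt5 the shares were 36.2%, 13.7% and 10.4% for the coding ENSMUST00000066804, ENSMUST00000222106 and ENSMUST00000223194, and 11.1% and 10.7% for the retained introns ENSMUST00000221955 and ENSMUST00000220874. For Sirt7 the 3 leading transcripts, ENSMUST00000127882 (21.0%), ENSMUST00000153018 (20.8%) and ENSMUST00000130743 (20.8%), were all annotated as retained introns.

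Sirt5 ENSMUST00000223194, a coding transcript, gave the lowest unadjusted p of the member transcripts with resveratrol. It had 24, 18, 31 and 36 counts in the control mice, 32, 34, 39 and 6 in the HFD mice, 1, 2, 6 and 5 in the HFD + RSV mice and 1, 33, 23 and 17 in the HFD + metformin mice. HFD mouse 4 and metformin mouse 1 had counts as low as those of the HFD + RSV mice. The log2FC in HFD + RSV against HFD was -2.91 (SE 0.78), with an unadjusted p of 0.00228 and an adjusted p of 0.925 by edgeR, whereas the sum over the transcripts of Sirt5 differed by 0.074. Another coding Sirt5 transcript, ENSMUST00000221515, named after its values were seen, had 13, 71, 40 and 7 counts in control and 0, 5, 8 and 4 in HFD, where a count of 0 allows up to 3 counts at this depth (log2FC -2.70 (SE 0.98), adjusted p = 0.261).

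Of Sirt1, ENSMUST00000020257 had 113, 120, 161 and 93 counts in the control mice, 118, 86, 22 and 0 in the HFD mice, 59, 66, 77 and 121 in the HFD + RSV mice and 250, 33, 355 and 109 in the HFD + metformin mice. Metformin mice 1 and 3, the mice with the high Sirt1 sums, were again the highest, and HFD mouse 4 had 0 counts, which allows up to 3, although its Sirt1 sum was 8.45 CPM. In HFD + metformin against HFD the log2FC of ENSMUST00000020257 was 1.78 (SE 0.96), with an adjusted p of 0.8291 by edgeR. Another Sirt1 transcript, ENSMUST00000146028, was named after its values were seen and is annotated as subject to nonsense-mediated decay. It had 2, 3, 3 and 4 counts in control and 11, 3, 47 and 79 in HFD. Its log2FC in HFD against control was 3.55 (SE 1.29), with an adjusted p of 0.258 by edgeR. Fragments are divided among overlapping transcripts, and the limit of 3 counts covers counting error only.

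Ppargc1a has a second start, 13804 bases upstream of the main one, which is known from muscle to respond to β-adrenergic signals and exercise. The promoter listed for Ppargc1a in RefSeq (GRCm38.p6) is that of the upstream start, and its 250 bases are shown because the transcripts ENSMUST00000127135 and ENSMUST00000151104 report on it. The window lies at chr5:51567726-51567975 on the minus strand. Capitals mark CGTCA, the reverse complement of TGACG, the short site of CREB and ATF factors, whose first printed base lies 49 bases before the start. TGACG was found on either strand in the windows of 5 of the 9 genes (Ppargc1a, Sirt1, Sirt3, Sirt4 and Nampt) and in 17.8% of all promoter windows, and the GC box GGGCGG in 7 of the 9 and 32.7%. In the Sirt1 window the TGACG overlaps the second E-box.
Ppargc1a: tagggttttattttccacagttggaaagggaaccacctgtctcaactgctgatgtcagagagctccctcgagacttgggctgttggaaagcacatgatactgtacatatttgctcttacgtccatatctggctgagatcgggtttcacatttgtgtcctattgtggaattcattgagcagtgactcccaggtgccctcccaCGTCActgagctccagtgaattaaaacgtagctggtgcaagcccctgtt

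The 2 upstream transcripts together had 15, 61, 33 and 32 counts in the control mice, 25, 39, 34 and 27 in the HFD mice, 42, 4, 4 and 28 in the HFD + RSV mice and 1, 31, 22 and 23 in the HFD + metformin mice. As a share of the Ppargc1a counts of a mouse they were 2.10% to 2.99% in control, 1.76% to 3.42% in HFD, 0.353% to 3.81% in HFD + RSV and 0.149% to 2.46% in HFD + metformin. The groups overlapped on this scale, with the lowest shares in metformin mouse 1 and HFD + RSV mice 2 and 3. As a share of the FPKM of the gene, which divides by transcript length, the same transcripts held 10.05% to 22.1% in control, 5.65% to 12.1% in HFD, 4.46% to 19.4% in HFD + RSV and 0.325% to 7.90% in HFD + metformin. The size of the share and the order of the mice thus depend on the scale. Control mouse 1 had the lowest share of its group by counts and the highest of the 16 mice by FPKM, and the metformin mice lay below the control mice by FPKM but not by counts. For the shares by counts the 95% Wilson interval was 0.0263% to 0.838% in metformin mouse 1 and 0.137% to 0.904% in HFD + RSV mouse 2, against 2.83% to 5.12% in HFD + RSV mouse 1, where intervals cover counting error only. ENSMUST00000127135 alone, named after its values were seen, had a log2FC of -1.70 (SE 0.72) in HFD + metformin against HFD, with an unadjusted p of 0.0327 and an adjusted p of 0.810 by edgeR.

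The lncRNA table held 25 rows within or across the spans of 9 of the 10 genes, of which 14 passed the filter, and 0 of their 84 tests passed an adjusted p under 0.05 by edgeR, with 6 at an unadjusted p under 0.05. In HFD against control the adjusted rule called 1.61% of all lncRNA rows and the unadjusted one 17.6%, against 0 and 1 of the 14 rows. In the other comparisons 0 of the 14 were called. Unadjusted, 1 passed in HFD + RSV against HFD (6.29% of all lncRNA rows, adjusted 0.0114%), 1 in HFD + metformin against HFD (6.95%, adjusted 0%), 1 in HFD + RSV against control (10.9%, adjusted 0.0114%), 2 in HFD + metformin against control (9.98%, adjusted 0%) and 0 between the treated groups (5.32%, adjusted 0.00568%). The row over Ppargc1a, ENSMUST00000199663, which lies within the gene at chr5:51510868-51514293, had 39, 267, 174 and 66 counts in the control mice and 50, 31, 62 and 36 in the HFD mice. Control mice 2 and 3 were high, and control mouse 1 lay within the HFD range (log2FC -1.32 (SE 0.44), adjusted p = 0.132). ENSMUST00000180613, within Nampt, had 732, 450, 1124 and 596 counts in the HFD mice and 373, 376, 262 and 589 in the HFD + RSV mice, of which 3 lay below all HFD mice. Its log2FC in HFD + RSV against HFD was -0.89 (SE 0.35), with an unadjusted p of 0.0220 and an adjusted p of 0.708. NONMMUT064157.2, within Sirt3, had 5 to 25 counts over all mice, and its log2FC in HFD + metformin against control was 1.40 (SE 0.32), with an adjusted p of 0.181. These 3 rows were named after their values were seen, and without strand their reads cannot be told from unspliced RNA of the gene they lie in.

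Variation between mice of the same group was compared among the members, with group means removed from log2 CPM. Of 45 pairs 22 had a positive correlation, 6 had an unadjusted permutation p under 0.05 for Pearson's r, and 0 passed after Benjamini-Hochberg adjustment. Sirt3 and Ppargc1a had r = 0.669 and Spearman's rho = 0.676 over 16 mice, with permutation p = 0.011 for each of r and rho (adjusted p = 0.248 for r), and r = 0.599 without the 2 mice farthest from the median of Sirt3. In each pair the 2 farthest mice were those of the first gene named, and extremes of the second gene were kept. Sirt5 and Ppargc1a had r = 0.557 (permutation p = 0.00987, adjusted p = 0.248) and rho = 0.644 (permutation p = 0.00669), with r = 0.582 without the 2 farthest mice. Ppargc1a and Ppargc1b, not among the 6, had r = 0.525 (permutation p = 0.0533) and rho = 0.582 (permutation p = 0.0359), with r = 0.444 without the 2 farthest mice. Of the 6 pairs, 3 were negative. Sirt1 and Sirt5 had r = -0.461 (permutation p = 0.0246) and rho = -0.532 (permutation p = 0.0378), with r = -0.478 without the 2 farthest mice. Sirt2 and Sirt7 had r = -0.600 (permutation p = 0.0394) and rho = -0.606 (permutation p = 0.0379), with r = -0.692 without them. Sirt4 and Nampt had r = -0.493 (permutation p = 0.0475) and rho = -0.524 (permutation p = 0.0551), with r = -0.483 without them. The remaining one was Sirt3 and Nampt, with r = 0.643 (permutation p = 0.0276) and rho = 0.641 (permutation p = 0.0399), and r = 0.477 without the 2 farthest mice. The adjusted p for r was 0.303 in these 4 pairs. Within single groups of 4 mice the sign of r was not the same for 2 of the 6 pairs. For Sirt2 and Sirt7 it was 0.94 in HFD but -0.97 in control, -0.64 in HFD + RSV and -0.97 in HFD + metformin. For Sirt3 and Nampt it was -0.77 in HFD + RSV but 0.56 in control, 0.98 in HFD and 0.98 in HFD + metformin.

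The genes whose log2 CPM was most like that of a member over the 16 mice were ranked by Pearson's r among 15363 other genes, as a description. For Ppargc1a they were Patl1 (r = 0.882), Mrpl45 (r = 0.859), Cox6c (r = 0.850), Vegfb (r = 0.848) and Gm11273 (r = 0.838). Mrpl45 encodes a mitochondrial ribosome protein and Cox6c a subunit of cytochrome c oxidase. For Nampt they were Lactb2 (r = 0.865), Ncoa6 (r = 0.828), Katnbl1 (r = 0.821), Zadh2 (r = 0.821) and Arhgap5 (r = 0.808). The mice share their libraries and depth across all these genes.

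The surrounding pathway was read from 7 lists with 117 genes, of which 115 were tested. In HFD against control 3 of them were called at an adjusted p under 0.05, 2 higher and 1 lower (1.32% and 1.11% of all genes), and 0 were called in HFD + RSV against HFD or in HFD + metformin against HFD. At an unadjusted p under 0.05, 23.5% of the list genes passed in HFD against control (all genes 24.2%), 1.74% in HFD + RSV against HFD (all genes 4.72%) and 10.4% in HFD + metformin against HFD (all genes 8.02%). The lists were drawn up with earlier results of these data known. Against control, 19.1% of the list genes passed unadjusted in HFD + RSV (all genes 15.8%) and 18.3% in HFD + metformin (all genes 9.5%), and 5.22% did between the treated groups (all genes 4.68%). In these 3 further comparisons 0 of the list genes were called. The share of the list genes was close to that of all genes on the diet alone, lower in HFD + RSV against HFD and higher in HFD + metformin against control. In HFD + metformin against control the clock list gave 8 higher and 3 lower among its 16 genes. Because the lists were drawn up with earlier results known, the shares are a description and no test of the pathway.

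Of 26 partners and corepressors of PGC-1, 1 rose on the diet. Mef2c, which encodes a muscle transcription factor that PGC-1α coactivates, was 136, 179.6, 82.04 and 181 CPM in the control mice, 421, 526, 541 and 340.2 in the HFD mice, 127, 205, 233 and 250.4 in the HFD + RSV mice and 393, 279, 259.7 and 238 in the HFD + metformin mice. The HFD mice all lay above the control mice. Its log2FC was 1.66 (SE 0.27) in HFD against control (adjusted p = 0.0149 by edgeR). Without control mouse 3 and metformin mouse 3 it was 1.46 (adjusted p = 0.0116), and limma on log2(FPKM + 0.1) gave 1.06 (adjusted p = 0.0926). With resveratrol it was -1.17 (SE 0.27) against HFD, which did not pass (unadjusted p = 0.000558, adjusted p = 0.999). The nuclear receptor genes Ppara and Pparg, partners of PGC-1 as well, had log2FC values of -1.41 (SE 0.49) and -1.62 (SE 0.75) on the diet, with adjusted p values of 0.105 and 0.203. Pparg is an adipocyte gene, and the white adipocyte markers summed to 506 to 2494 CPM in the control mice and 50.5 to 582 CPM in the HFD mice. The part of those cells in either value was not tested.

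Of 24 PGC-1 target genes of muscle, 1 fell on the diet, Kyat3, which encodes a kynurenine aminotransferase. It was 13.9, 18.2, 18.9 and 13.2 CPM in the control mice and 7.57, 8.82, 7.91 and 9.69 in the HFD mice, groups that did not overlap, with a log2FC of -0.92 (SE 0.21) and an adjusted p of 0.0436 by edgeR. It was called in 5 of 13 alternatives, with adjusted p from 0.00255 with DESeq2 to 0.129 without control mouse 3. The median log2FC of the 24 targets was -0.036, beside -0.018 for all genes. In HFD + RSV against HFD 0 of the 24 passed even unadjusted, and their median was 0.055, beside 0.0049.

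For NAD+ synthesis, 0 of 13 tested genes were called in any of the 3 comparisons. The 2 genes with an unadjusted p under 0.05 on the diet, named after their values were seen, differed in sign. Nmrk2, the muscle nicotinamide riboside kinase, was 19.7, 10.9, 12.7 and 16.7 CPM in the control mice and 124, 93.9, 81.1 and 29.9 in the HFD mice, with a log2FC of 2.46 (SE 0.66) and an adjusted p of 0.0609 by edgeR. Nadk, which turns NAD+ into NADP+, was 36.6, 27.7, 92.8 and 37.2 CPM and 24.3, 15.4, 18.4 and 27.1 CPM, with control mouse 3 the highest, a log2FC of -1.19 (SE 0.39) and an adjusted p of 0.0928. In the 12 genes of NAD+ use and nicotinamide methylation 0 were called. Cd38, a major NAD+ hydrolase, was the 1 gene of that list with an unadjusted p under 0.05 in HFD + RSV against HFD, at 8.39, 10.4, 9.33 and 7.67 CPM in the HFD mice and 11.2, 11.7, 10.03 and 11.4 in the HFD + RSV mice (log2FC 0.31 (SE 0.14), adjusted p = 0.999).

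Among 18 sirtuin substrates 0 were called and among 6 sirtuin modulators 0 were called in these 3 comparisons. Acss1, the mitochondrial acetyl-CoA synthetase that SIRT3 deacetylates, came nearest on the diet, with a log2FC of -0.89 (SE 0.23) and an adjusted p of 0.0589. Of 16 clock genes, which include the regulators through which Nampt is known to cycle, 1 rose on the diet. Dbp, a clock output gene, was 21.9, 8.94, 14.6 and 21.99 CPM in the control mice and 61.3, 31.02, 46.9 and 62.4 in the HFD mice (log2FC 1.58 (SE 0.39), adjusted p = 0.0478 by edgeR). It was called in 4 of 13 alternatives, with adjusted p from 0.00169 with DESeq2 to 0.143 without control mouse 3. The median log2FC of the clock genes was 0.36, beside -0.018 for all genes, while that of Nampt was -0.079. The hour at which each mouse was killed is not given in the sources used here.

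**Figure D5:**
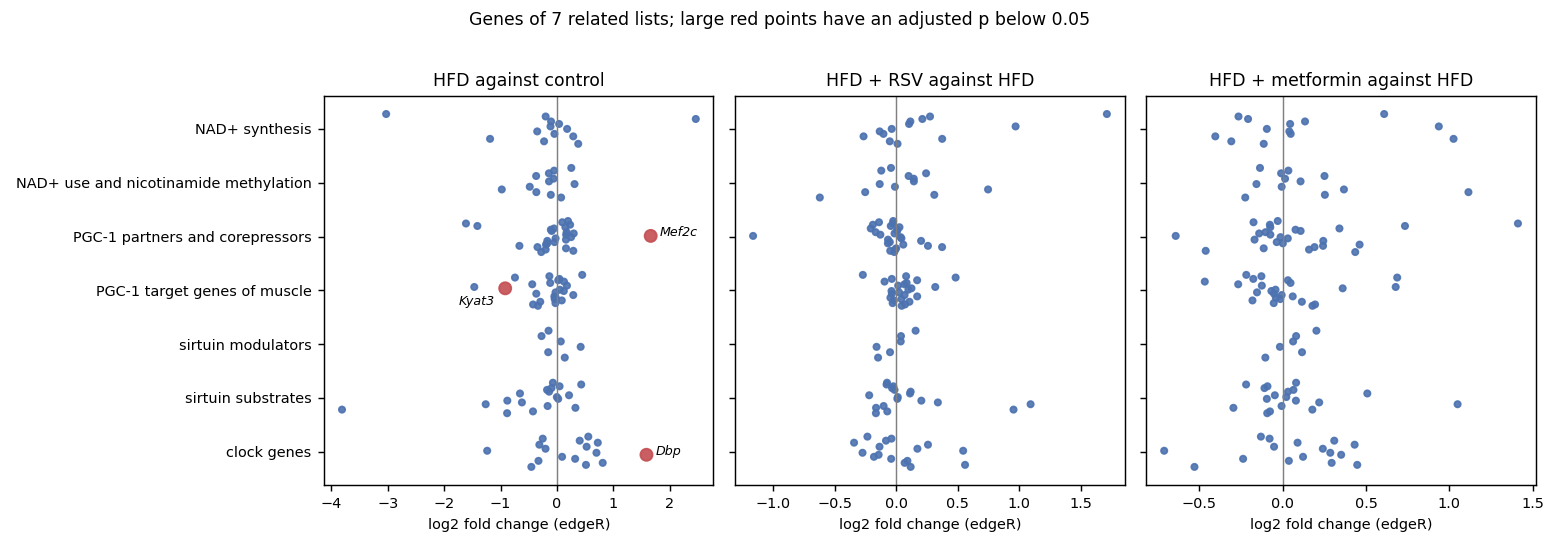
Log2FC from edgeR (horizontal axes, which differ between panels) of the 115 tested genes of the 7 lists in 3 comparisons, 1 point per gene. Mef2c and Dbp above 0 and Kyat3 below 0 are called in HFD against control, and no point is called in the other 2 panels.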

How the data were processed

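RNA of 16 mouse muscle samples was sequenced by the authors with a kit that does not mark strand. The submitters' processing notes name fastp, HISAT2 and the build GRCm38, and 97.7% of the annotated transcripts shared GENCODE M21 coordinates. The authors deposited, per transcript, estimated counts (whole numbers from an assembler that divides fragments among overlapping transcripts) and FPKM, which use transcript length and the library total without TMM, for 82388 mRNA transcripts and 58245 lncRNA rows.

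Counts were summed per gene name (4 rows broken over lines were joined). Genes were filtered by a minimum count of 10 (total 15), scaled by TMM and tested with edgeR 4.0.16 (R 4.3.3) by a robust quasi-likelihood fit over all 16 mice with group as the only term, and p-values were adjusted by Benjamini-Hochberg over 15364 genes, 44573 transcripts or 17599 lncRNA rows; a call is an adjusted p under 0.05. SE is the absolute log2FC over the square root of F. Single genes were also compared by an exact two-sided permutation test, and pairs by 100000 permutations within groups. DESeq2 1.42.0 and limma 3.58.1 on log2(FPKM + 0.1) were alternatives, with other scaling, no filter, 2 groups only and each mouse left out. Scripts were tested on simulated data. The members and gene lists were chosen with earlier results of these data known. All 10 members were named, from each list at most 3 genes per direction and comparison among the called ones, and transcripts with at least 10% of the FPKM of their gene; others are said to be named after their values were seen. Mouse numbers follow accession order and only name a mouse. Wilson intervals and limits cover counting error only. Common biological coefficients of variation were 0.261 (genes), 0.582 (transcripts) and 0.413 (lncRNA rows).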

Additional observations from a re-analysis of the deposited data

Results flagged for a closer look

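Of 44 groups of 4 mice checked for a lone value, 1 was picked out. The share of Ppargc1a counts from the upstream start was 2.10% in control mouse 1 (15 of 713 counts, 95% Wilson interval 1.28% to 3.44%), against 2.91% to 2.99% in the other 3 control mice. Its gap to the nearest of the others was 0.901 of the range of the group, above Dixon's 95% critical value for 4 samples. Chance picks out about 1 in 20 groups, and the interval of this mouse includes the values of the other 3. As a share of FPKM the same mouse was the highest of its group, at 22.1% against 10.05% to 15.1%, so the low value depends on the scale.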

How the results depend on the processing

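The number of members called was 0 in each of the 7 comparisons. It remained 0 in every recalculation in which scaling, filter, test, groups in the fit or mice were changed. The smallest adjusted p was 0.0503 (Sirt7, HFD + RSV against control, DESeq2). Sirt7 in that comparison had an unadjusted p under 0.05 in 14 of 14 alternatives (log2FC -0.64 to -0.40), in HFD against control in 6 of 14 (-0.42 to -0.21) and in HFD + metformin against control in 8 of 14 (-0.41 to -0.25). Sirt1 in HFD + metformin against HFD passed unadjusted in 14 of 15 (0.17 to 0.93) and between the treated groups in 13 of 15 (-0.83 to -0.072), with the values nearest 0 without metformin mice 1 and 3.

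The direction of differences that were not called was less stable. Of 60 values the sign changed in 0 under RLE scaling, without the filter, with 2 groups in the fit and with DESeq2, and in 13 with limma on log2(FPKM + 0.1), where the absolute log2FC was at most 0.18. It changed in 54 of 480 with 1 mouse left out, in 8 of 50 without control 3 and metformin 3 and in 7 of 20 without metformin 1 and 3, and the cause was not tested. FPKM are not TMM-scaled, and on that scale the median of all genes was -0.16 in HFD against control and 0.12 in HFD + metformin against HFD. No paired analysis was possible because the numbers in the labels have no stated meaning and any pair of groups shares at most 1 leading number. Depth limits the transcript and lncRNA values most, since several rest on fewer than 10 counts in a mouse.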

Other observations

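The genes most like 2 further members in log2 CPM over the 16 mice, looked up after the values were seen, are given as a description. For Sirt3 they were Hsdl2 (r = 0.913), Etfa (r = 0.912), Hadhb (r = 0.904), Epas1 (r = 0.901) and Tmem44 (r = 0.901). Etfa encodes a subunit of the electron transfer flavoprotein and Hadhb a subunit of the mitochondrial trifunctional protein, both of fatty acid oxidation. For Sirt1 the gene with the highest r was Hmgcs1 (r = 0.871), an enzyme of cholesterol synthesis. By rank the likeness of Hmgcs1 to Sirt1 was weaker, with Spearman's rho = 0.441. The genes named for Sirt3 had rho of 0.885 to 0.959. The part of the mice with the highest Sirt1 values in the r of Hmgcs1 was not tested. The mice differ in slow fibre and adipocyte marker sums, and the part of these cells in the correlations was not tested.

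Several clock genes besides Dbp, named after their values were seen, came near the threshold in HFD against control. Tef had a log2FC of 0.55 (SE 0.14, adjusted p = 0.0501 by edgeR), Nr1d2 of 0.52 (SE 0.13, adjusted p = 0.0509) and Npas2 of -1.24 (SE 0.32, adjusted p = 0.0534). In HFD + metformin against control 8 of the 16 clock genes were higher and 3 lower at an unadjusted p under 0.05, where 9.5% of all genes passed. In HFD + RSV against control 4 were higher and 2 lower, where 15.8% of all genes passed. In both comparisons 0 of the 16 were called by edgeR after adjustment. These 3 comparisons share the 4 control mice.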
